A study of Homo sapiens with 12 samples.

Results

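The genes described here encode the nuclear lamina and the complex that ties it to the cytoskeleton, known as the LINC complex (linker of nucleoskeleton and cytoskeleton). They are the 10 genes LMNA, LMNB1, LMNB2, LBR, TMPO, EMD, SUN1, SUN2, SYNE1 and SYNE2. Their peaks of N4-acetylcytidine (ac4C, an acetylated cytidine in RNA) were taken as the deposited peaks that overlap the RefSeq span of the gene by at least 1 bp on either strand. This gave 49 of the 34365 peaks in the control list and 68 of the 28047 peaks in the knockdown list. The genes were proposed with their peak numbers already known, so the numbers per gene are a description and carry no test.

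The libraries came from RBE cells, an established human intrahepatic cholangiocarcinoma line. One arm carried a short hairpin RNA against NAT10 (sh-NAT10), the enzyme that acetylates cytidine in RNA, and the other a control hairpin (sh-NC). Per the labels' protocols the NAT10 hairpin was delivered by lentivirus, and resistant colonies were kept after puromycin selection. The sources used here do not say how many hairpin sequences were used or whether each line is 1 clone. An antibody to ac4C pulled down fragmented RNA, and each precipitate and its input were sequenced, with 3 replicates of each kind per arm and 12 libraries in all. The labels name polyA RNA as the molecule.

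The values are 1 peak list per arm, and no list separates the replicates. No spread between replicates and no p-value between arms can therefore be given. A peak can be missing because the site carried less ac4C, because the cells held less of that RNA, or because too few reads were present, and these lists cannot tell them apart. Read depth is unknown, so every missing peak below means not listed and not absent. In both lists 5 of 6 biliary epithelium genes had peaks (KRT7, KRT19, KRT8, KRT18 and SOX9), with 33 peaks in each list, and EPCAM had 0. Of 4 hepatocyte markers, 1 was listed in the control arm and 0 in the knockdown arm. Of 4 fibroblast markers 1 was listed in each arm, COL1A2 in the control and COL1A1 in the knockdown arm. Of 3 immune markers, PTPRC alone was listed, in both arms. These are peaks and not expression levels.

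The lamina is a meshwork of A-type lamins (from LMNA) and B-type lamins (from LMNB1 and LMNB2) under the inner nuclear membrane. LBR, the lamin B receptor, and the LEM-domain proteins emerin (EMD) and lamina-associated polypeptide 2 (TMPO) hold chromatin and lamins to that membrane. SUN1 and SUN2 cross the inner membrane and bind, between the membranes, the nesprins encoded by SYNE1 and SYNE2, which reach actin and other cytoskeletal elements. Lamin A and C set nuclear stiffness and are abundant in stiff tissues. Sequences of the peaks are not shown, since no genome of this build was used here. RefSeq promoter windows, from 250 bases before to 50 after a gene start, were available for 9 of the 10 genes, and 0 member peaks of either list overlapped one, so no promoter is shown either.

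All 10 genes were listed in the knockdown arm and 7 in the control arm. LBR, TMPO and SUN1 had 0 control peaks, and 4, 5 and 7 knockdown peaks. Of all protein-coding genes with a peak, 13.4% were in the knockdown list only and 22.8% in the control list only. LMNA had 13 control and 15 knockdown peaks, LMNB2 had 5 and 8, and SYNE2 had 2 and 3. SYNE1 had 14 in both lists. LMNB1 had 3 control and 2 knockdown peaks, EMD had 3 and 2, and SUN2 had 9 and 8. Thus 6 genes had more knockdown than control peaks, 3 had fewer and 1 had equal numbers. Among the 10915 protein-coding genes with any peak, 33.3% had more, 46.1% had fewer and 20.6% had equal numbers. The median difference, knockdown minus control, was 1.5 peaks over the 10 genes and 0 over all protein-coding genes with a peak.

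**Figure D1:**
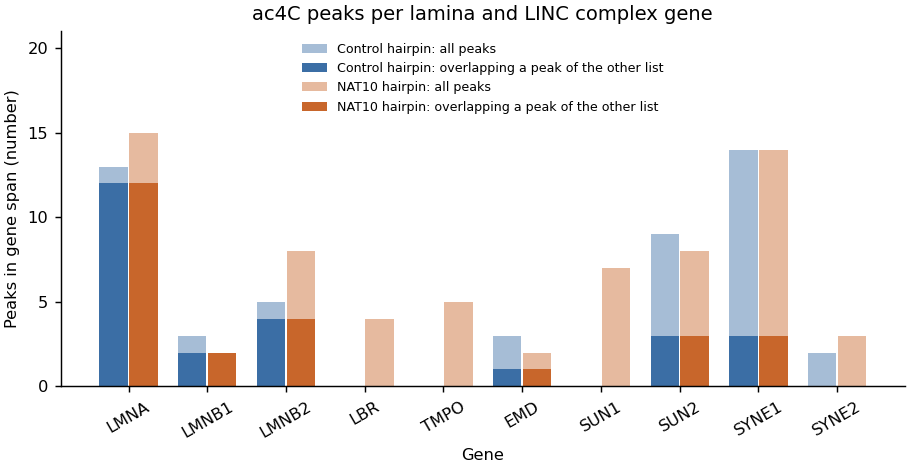
Number of ac4C peaks in the span of each gene (vertical axis) in the control list (blue) and the knockdown list (orange). Dark bars count the peaks that overlap a peak of the other list on the same strand. LBR, TMPO and SUN1 had knockdown peaks and 0 control peaks, while 12 of the LMNA peaks in each list overlapped.

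Of the 10 genes 5 had one of the commonest differences, from -1 to 1. A difference of -1, shown by LMNB1, EMD and SUN2, was found for 2528 protein-coding genes, one of 0 for 2250 and one of 1 for 2046. LMNA had a difference of 2 and LMNB2 one of 3. A difference of 4, that of LBR, was found for 169 genes, one of 5 (TMPO) for 72 and one of 7 (SUN1) for 19. Genes with 0 control and at least 4 knockdown peaks numbered 49, or 0.449% of those with a peak, and LBR, TMPO and SUN1 are 3 of these 49. The cut of 4 equals the peak number of LBR, and the genes were proposed with these numbers known. Their place among the 49 is therefore not a separate result. The reverse, 0 knockdown and at least 4 control peaks, was found for 332 genes (3.04%), none of them among the 10. Every one of the 10 genes had at least 4 peaks over both lists, and among the 5291 protein-coding genes with that many, 33.9% had more knockdown peaks and 45.7% fewer, 0.926% were in the knockdown list only and 6.27% in the control list only.

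These numbers move with strand, merging, list length and the cut on score. Counting peaks on the strand of the gene only, 7 of the 10 genes had more knockdown peaks and 2 had fewer. The same numbers were found with scores of 10 or more. The shares over protein-coding genes were not counted for these settings. With peaks of a list within 100 bp merged to 1, the 10 genes had 41 control and 52 knockdown peaks. Then 4 of them had more in the knockdown list, beside 31.3% of protein-coding genes, and 2 had fewer, beside 44.9%. With the control list cut by score to as many peaks as the knockdown list, 8 of the 10 genes had more knockdown peaks, beside 44.8% of protein-coding genes with a peak, and 1 had fewer, beside 36.8%. Since this cut removes control peaks only, it can shift genes in 1 direction only. With scores of 20 or more only, 4 of the 10 genes had a peak left. Of these 4, 3 had more in the knockdown list (TMPO, SUN2 and SYNE1) and 1 had fewer (LMNA), beside 40.8% and 38.3% of the 4069 protein-coding genes with such a peak. LBR and SUN1 then had 0 peaks in both lists. Equal scores need not mean the same in both lists, since their scale is not stated.

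**Figure D2:**
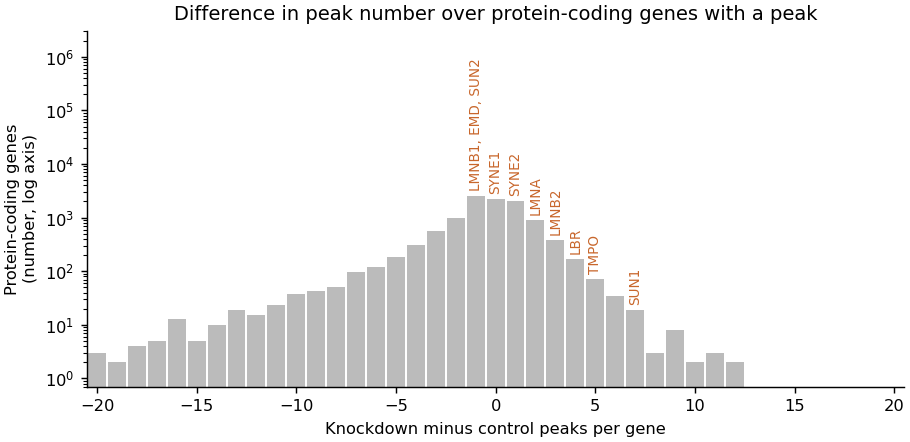
Number of protein-coding genes (vertical axis, log scale) for each difference in peak number, knockdown minus control (horizontal axis), over the 10915 genes with a peak. Names mark the 10 lamina and LINC complex genes, from -1 (LMNB1, EMD, SUN2) to 7 (SUN1), and 12 genes with differences beyond 20 in either direction lie outside the axis.

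LMNA encodes lamins A and C by alternative splicing and spans chr1:156082573-156140081 (hg38, plus strand). It held the highest score among the 10 genes in both lists. The score is the authors' own value for a peak, on a scale the sources used here do not state. It orders and selects the peaks of 1 list, and scores given side by side for both lists are not read as a change. Scores gather just above a lower edge at 10, with 42.9% of the control list and 40.3% of the knockdown list between 10 and 12. The top LMNA peak had identical limits in both lists, chr1:156136916-156137040, 125 bp wide. Its score was 96.02 in the control list, at or above 99.2% of that list, and 95.10 in the knockdown list, at or above 99.1% of that one. The peak lies 54405 bp from the gene start, in the last 10% of the span.

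Most of the LMNA peaks fell in this end of the gene. The last 10% of the span held the centres of 10 of the 13 control peaks and of 11 of the 15 knockdown peaks. Of all peaks in protein-coding genes of known strand, 27.7% of control and 21.4% of knockdown peaks did. After the top one, the control peaks with the highest scores here were chr1:156137641-156137840 with 27.09 and chr1:156135292-156135316 with 26.39. Both had identical limits in the knockdown list, with scores of 22.59 and 19.11. The peak chr1:156136191-156136290 had identical limits in both lists as well, with scores of 16.06 and 17.16, as did chr1:156138716-156138740, a 25 bp peak near the edge with 10.31 and 10.78. All LMNA peaks were on the strand of the gene and overlapped no other gene.

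Other LMNA peaks matched with different limits. The control peak chr1:156136041-156136140 (score 14.98) ended at the same base as the 250 bp knockdown peak chr1:156135891-156136140 (19.60). The control peak chr1:156136366-156136440 (22.06) had as its counterpart chr1:156136341-156136440 (10.64), and chr1:156139166-156139340 (12.29) had chr1:156139066-156139340 (16.20). Upstream, 2 wide peaks were listed in each arm. One covered chr1:156115004-156123145 in the control list (8142 bp, score 18.67) and chr1:156114979-156123145 in the knockdown list (8167 bp, 11.23). The next covered chr1:156130650-156134528 (3879 bp, 21.89) and chr1:156129892-156134829 (4938 bp, 11.96). A peak is written as 1 block, so such spans may include introns and their width is not a length of RNA.

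In all, 12 of 13 control and 12 of 15 knockdown LMNA peaks overlapped a peak of the other list. The peaks without a partner were close to one. The control peak chr1:156139391-156139440 (12.48) lay 50 bp from the nearest knockdown peak. The knockdown peaks chr1:156114904-156114953 (13.77) and chr1:156137241-156137265 (10.56) lay 50 and 0 bp from a control peak, the latter directly beside it. The knockdown peak chr1:156139741-156139890 (11.06), 300 bp from the nearest control peak, was the last one before the gene end.

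**Figure D3:**
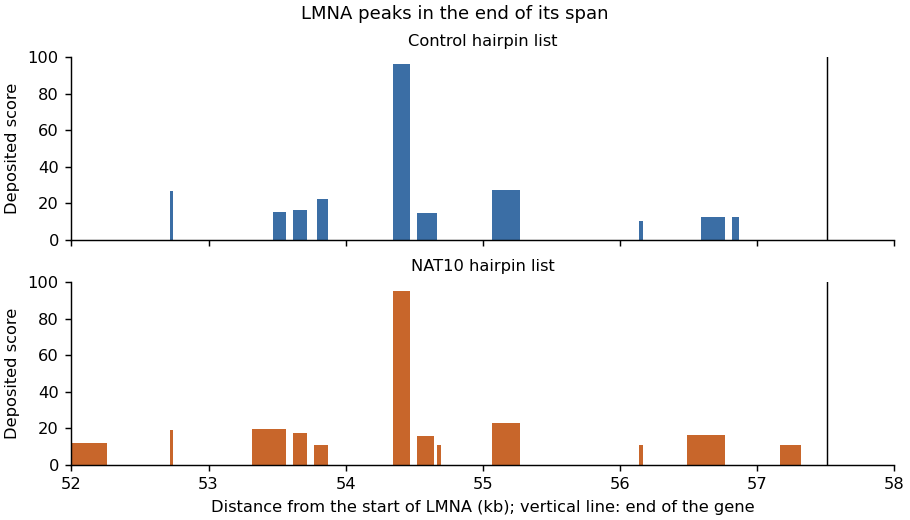
Peaks in the end of the LMNA span, as distance from the gene start in kb (horizontal axis) and deposited score (vertical axis), in the control list (top) and the knockdown list (bottom). The bar width is the peak width and the vertical line marks the gene end. The peak with scores of 96.02 and 95.10 stands at the same place in both. The panels use the same axis, but whether scores of the lists share a scale is not stated.

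LMNB2, a B-type lamin gene on chr19:2428166-2456959 (minus strand), had 4 control peaks with a knockdown partner. Identical limits were listed for chr19:2432517-2433843 (scores 19.26 control and 18.01 knockdown) and chr19:2430885-2431554 (11.00 and 14.44). The control peak chr19:2429685-2429759 (11.54) shared its lower limit with a knockdown peak of 50 bp (12.17). A wide peak near the start of the gene ended at 2456673 in both lists, with a width of 12254 bp in the control arm and 18151 bp in the knockdown arm. The knockdown list added 3 peaks next to the gene end, chr19:2428285-2428409 (16.07), chr19:2428485-2428534 (10.39) and chr19:2428685-2428759 (11.03). These 3 had their centres 99.4%, 98.8% and 98.1% of the way along the gene. It also held a 25 bp peak, chr19:2456749-2456773 (13.28), with its centre 198 bp from the listed gene start. The control peak chr19:2434508-2434804 (11.63) had no partner.

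LMNB1, the other B-type lamin gene, on chr5:126776623-126837020 (plus strand), had a peak near its start and one at its end in both lists. The first, chr5:126777748-126777847, had identical limits and scores of 13.59 and 19.61, and lies 662 bp past the nearer of 2 listed starts. The peaks at the end, chr5:126836888-126837012 in the control list (12.98) and chr5:126836838-126836912 in the knockdown list (11.71), overlapped in part. The third control peak, chr5:126810302-126811713 (1412 bp, 18.87), had no knockdown partner.

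TMPO makes several forms of lamina-associated polypeptide 2 by alternative splicing, some in the inner nuclear membrane and one in the nuclear interior. It spans chr12:98515573-98550351 (plus strand) and had 0 control peaks. Of its 5 knockdown peaks, 4 lay together between 82.8% and 86.5% of the way along the span. The highest, chr12:98544314-98544455, 142 bp wide, had a score of 52.49, at or above 97.6% of the knockdown list. The next, chr12:98544932-98546378, 1447 bp wide, had a score of 28.18. Between them lay 2 peaks of 25 bp near the edge, chr12:98544481-98544505 (10.95) and chr12:98544782-98544806 (10.19). The last, chr12:98531811-98531835 (10.23), stood alone at 46.7% of the span. All 5 were on the strand of the gene and overlapped no other gene.

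Of the 1466 protein-coding genes listed in the knockdown arm only, 13 had a score of at least 50, and TMPO is among these 13. Of the 2486 listed in the control arm only, 44 had such a score. These are 0.119% and 0.403% of the 10915 protein-coding genes with a peak. The cut of 50 lies just under the highest TMPO score, 52.49, so the place of TMPO among the 13 is not a separate result. Genes with 0 control and exactly 5 knockdown peaks, none shared with another gene, numbered 5 besides TMPO. These were SH3TC2, CD109, MAP2K7, VAMP7 and RAB3IP, with highest scores of 19.85, 17.93, 16.93, 13.99 and 13.79. The nearest control peak outside TMPO was on the minus strand, 11811 bp away, and the knockdown list held a peak with the same limits there, chr12:98502591-98503762.

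LBR is both a lamin B and heterochromatin receptor and a sterol reductase. It spans chr1:225401502-225428821 (minus strand) and had 0 control peaks. Its 4 knockdown peaks were chr1:225422167-225422191 with a score of 17.76, chr1:225403327-225403351 with 11.29, chr1:225419402-225419426 with 10.77 and chr1:225404627-225406581 with 10.45. The first 3 of these were 25 bp wide and the last 1955 bp. They lay apart from each other, at 24.3%, 93.3%, 34.4% and 85.0% of the span, and 3 of the 4 scored under 12. The nearest control peak outside the gene was 65994 bp away. Equal numbers, 0 control and 4 knockdown peaks, were found for 22 other protein-coding genes with peaks in no second gene, and the nearest to LBR in highest score were IARS2 (18.56), ELF4 (20.12), PPP2R2D (15.26), ARFGAP1 (14.77) and MAOA (14.45).

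EMD is a short gene, 2229 bp on chrX:154379295-154381523 (plus strand), and encodes emerin, the protein missing in X-linked Emery-Dreifuss muscular dystrophy. The control peak chrX:154380880-154380979 (11.49) and the knockdown peak chrX:154380880-154381004 (14.05) began at the same base. The control list also had chrX:154379548-154379630 (10.55) and chrX:154380730-154380804 (10.80), and the knockdown list chrX:154380228-154380277 (14.08), none with a partner. All 3 control scores lay under 12. Because the gene is short, it had the most peaks per length of the 10, 135 control and 89.7 knockdown peaks per 100 kb of span. The next highest were those of SUN2, 42.3 and 37.6. Introns count in these spans.

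**Figure D4:**
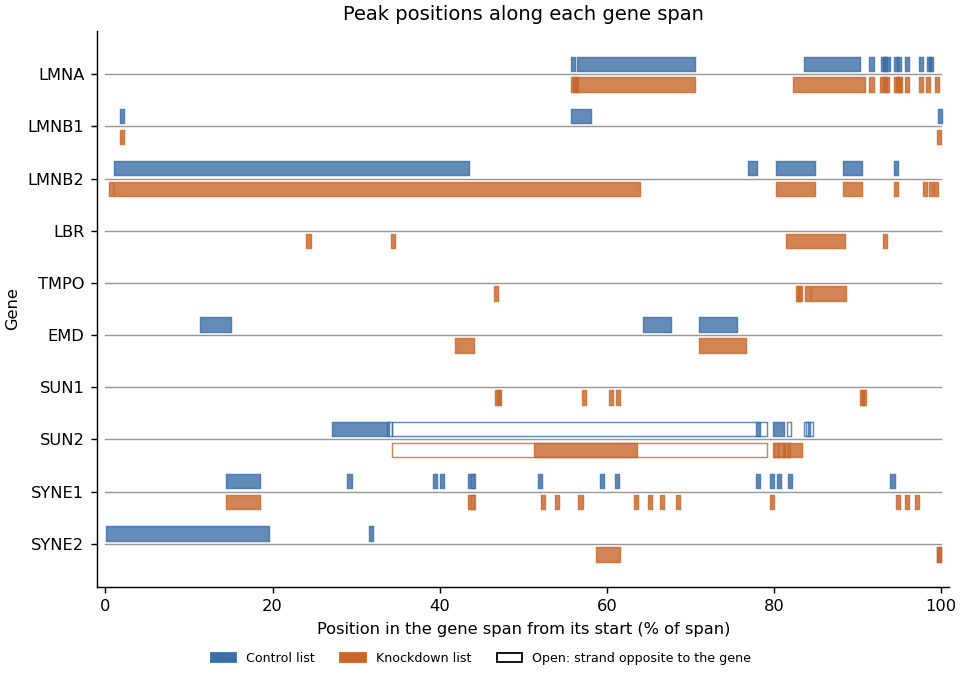
Position of each peak along the gene, from the gene start (0%) to its end (100%), in the control list (blue, above the line) and the knockdown list (orange, below). Open marks lie on the strand opposite to the gene, and peaks narrower than 0.5% of the span are drawn at that width. LMNA peaks align between the lists near the gene end, and SYNE1 peaks lie mostly at different places.

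SUN1 lies on chr7:815557-874934 and had 0 control and 7 knockdown peaks, the largest difference among the 10 genes. The RefSeq start table used here has no entry for it, so its direction was taken from its peaks, which were all on the plus strand. The peaks were narrow, from 25 to 192 bp, and formed small groups. One group was chr7:843396-843445 (10.55) and chr7:843496-843545 (10.74). Then came chr7:849520-849619 with the highest score, 15.95, chr7:851369-851560 (11.48) and chr7:851986-852010 (10.83). Nearer the end stood chr7:869322-869371 (11.95) and chr7:869397-869471 (14.53), which also overlap 2 uncharacterised loci. Of the 7 scores, 5 lay between 10 and 12. The nearest control peak was outside the gene, 12584 bp past its end, and the knockdown list had a peak with the same limits there, chr7:887518-890950. Among the protein-coding genes whose peaks overlap no second gene, a group that leaves out SUN1 itself, 1 had 0 control and 7 knockdown peaks, ANAPC1, and its highest score was 20.26.

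SUN2, the partner of SUN1 in the inner membrane, lies on chr22:38734734-38755998 (minus strand) and overlaps GTPBP1 (chr22:38705944-38743115, plus strand), a GTP-binding protein gene. Of its 9 control peaks 6, and of its 8 knockdown peaks 4, were on the plus strand, which is that of GTPBP1. Of these, 5 control and 4 knockdown peaks overlap the GTPBP1 span. The sources used here do not say whether reads were assigned by strand, so SUN2 and GTPBP1 peaks cannot be told apart with certainty. On its own strand SUN2 had 3 control and 4 knockdown peaks. The peak chr22:38738735-38739002 had identical limits, with scores of 25.73 and 24.95. The control list also had chr22:38748771-38750242 (18.36) and chr22:38739371-38739395 (10.68). The knockdown list had chr22:38742461-38745081 (20.46), chr22:38738264-38738634 (12.49) and chr22:38738660-38738709 (11.64). None of these 5 had a partner.

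On the plus strand the widest SUN2 peak, chr22:38739153-38748716 (9564 bp), was listed with a score of 0.00 in both lists and identical limits. Another 3 control peaks there scored 5.89, 5.89 and 6.07, below the edge. Only 2 of the 9 control peaks and 0 of the 8 knockdown peaks overlapped SUN2 and no other gene. Counting the gene's own strand, SUN2 had 1 more knockdown peak, and counting all peaks 1 fewer, so no direction can be given for it.

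SYNE1 encodes the giant nesprin 1 and spans 515676 bp on chr6:152121687-152637362 (minus strand). It had 14 peaks in each list. Of these, 3 overlapped between the lists, all with identical limits, beside a shared 45.5% of all control and 55.6% of all knockdown peaks. They were chr6:152409692-152413358 (scores 13.59 control and 25.41 knockdown), chr6:152542223-152563137 (10.85 and 11.00) and, on the plus strand, chr6:152410300-152410374 (10.66 and 13.95). Each of these 3 also overlaps an annotated pseudogene, RNA5SP223 or NANOGP11.

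The remaining SYNE1 peaks had no partner. Near the end of the gene the knockdown list had chr6:152136299-152136676 (21.58), chr6:152141324-152143716 (23.76) and chr6:152148262-152148361 (16.74), at 97.1%, 96.0% and 94.8% of the span. The control list had 1 there, chr6:152151569-152151618 (11.32), at 94.2%. Another 4 knockdown peaks had their centres from 63.5% to 68.5% of the span, the highest of them chr6:152309896-152309970 (24.92), and the control peak nearest to them, chr6:152321740-152321814 (13.37), lay at 61.2%. Control peaks without a partner in the earlier part of the gene were chr6:152428369-152430483 (16.10), chr6:152433899-152433948 (10.12) and chr6:152484962-152488484 (10.85). A control peak, chr6:152225796-152225870 (11.89), and a knockdown peak, chr6:152225771-152225795 (11.19), lay directly beside each other without overlap. Within the knockdown list 4 of the 14 SYNE1 peaks scored 20 or more, beside 14.9% of that list, and 5 scored between 10 and 12, beside 40.3%. Within the control list 0 and 9 of 14 did, beside 12.3% and 42.9% of that list. These scores are not read as a change between the lists.

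SYNE2, which encodes nesprin 2, spans 464854 bp on chr14:63761596-64226449 (plus strand) and had 0.43 control and 0.645 knockdown peaks per 100 kb of span, the lowest value of the 10 genes in the knockdown list and the lowest above 0 in the control list. No peak was shared. The control list had chr14:63909174-63909223 (14.09) and a 90539 bp span at the start of the gene with a score of 0.00. The knockdown list had chr14:64034578-64048009 (13432 bp, 18.67) and, at the end of the gene, chr14:64225002-64225324 (13.25) and chr14:64225350-64225374 (10.34). These last peaks lie 9209 and 9408 bp past the nearest listed start upstream of them.

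**Figure D5:**
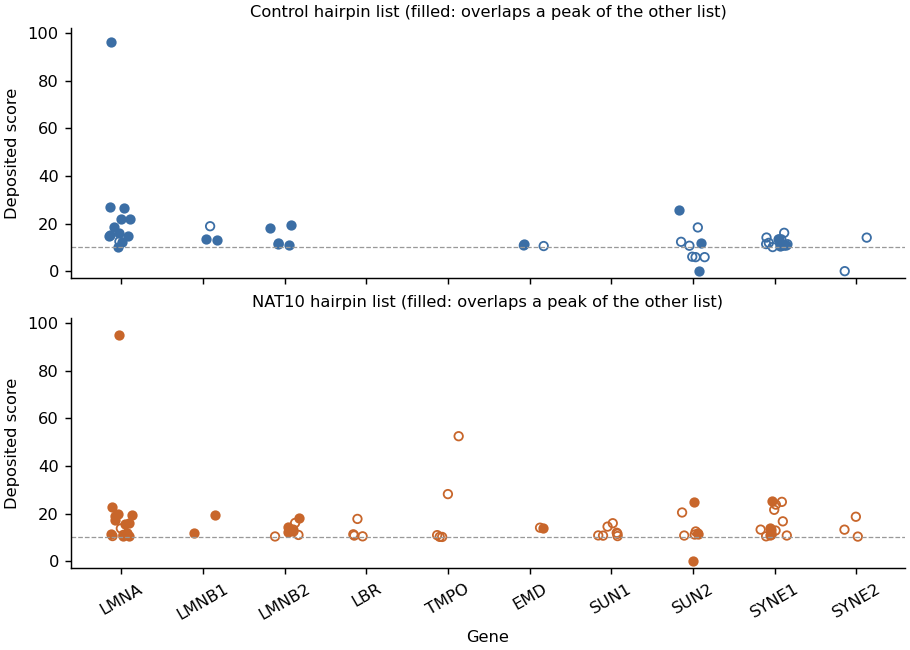
Deposited score of each peak (vertical axis) by gene (horizontal axis) in the control list (top) and the knockdown list (bottom). Filled points overlap a peak of the other list, open points do not, and the dashed line marks the lower edge at 10. The LMNA peak near 96 stands out in both lists and the TMPO peak at 52.49 in the knockdown list.

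Over all 10 genes, 25 of 49 control peaks had a same-strand overlap with the knockdown list (51.0%, 95% Wilson interval 37.5 to 64.4), beside 45.5% of all control peaks. In the other direction the number was 25 of 68 knockdown peaks (36.8%, 26.3 to 48.6), beside 55.6% of all knockdown peaks. The 68 include the 4, 5 and 7 peaks of LBR, TMPO and SUN1, which had 0 control peaks to overlap. This share therefore in part restates the peak numbers of those 3 genes and is not a separate result. The intervals cover counting error only and treat peaks as independent, which peaks of 1 gene are not. LMNA held 12 of these 25. Without it, 13 of 36 control peaks (36.1%, 22.5 to 52.4) and 13 of 53 knockdown peaks (24.5%, 14.9 to 37.6) were shared. Of the 25 overlapping pairs, 13 had identical limits, 18 the same start and 18 the same end. Identical limits were thus found for 26.5% of the control and 19.1% of the knockdown peaks, beside 16.3% and 20.0% over the whole lists. Of the 24 unshared control peaks 10 lay within 1000 bp of a knockdown peak on the same strand, as did 11 of the 43 unshared knockdown peaks near a control peak. The same count was not made over the whole lists. The 43 include all peaks of LBR, TMPO and SUN1, whose nearest same-strand control peaks lay at least 18046 bp away.

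The peaks of these genes were mostly narrow and on the strand of the gene. Widths up to 1000 bp were found for 75.5% of the control and 80.9% of the knockdown peaks, beside 69.0% and 68.6% over the lists. A width of exactly 25 bp, the smallest in these genes, was found for 7 of 49 control and 14 of 68 knockdown peaks. The share of such peaks over the whole lists was not counted, so these numbers are not read as a trait of these genes. Each member peak lay wholly inside its gene, and the smallest overlap with a span was 25 bp. The nearest peak outside any of the 10 spans was 3152 bp from LMNB2 in both lists. Peaks opposite to the gene made up 14.3% of the control and 7.35% of the knockdown peaks, beside 9.47% and 9.29% in protein-coding genes of known strand. All of them were in SUN2 except for the SYNE1 peak named above, listed in both arms. SUN1 was given the strand of its own 7 knockdown peaks, so these could not be opposite. The shares for protein-coding genes of known strand leave out genes without a reference strand. Scores of 20 or more were listed for 6 control peaks (12.2%, beside 12.3% of the control list) and 10 knockdown peaks (14.7%, beside 14.9%). The last 10% of the span held 13 control peaks (26.5%, beside 27.7% in protein-coding genes of known strand) and 24 knockdown peaks (35.3%, beside 21.4%). LMNA supplied 10 of these 13 and 11 of these 24, and without it the last 10% held 3 of 36 control and 13 of 53 knockdown peaks. SUN1, with its direction taken from its peaks, supplied 2 of the 24.

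A further 38 genes of the nuclear envelope, lamin processing, LEM-domain partners and envelope resealing were chosen by function. Not all of them encode proteins of the envelope itself. Of these 26 had a peak, with 44 control and 31 knockdown peaks in all. The share of all protein-coding genes that have a peak was not counted, so 26 is not read as many or few. More knockdown peaks were listed for 8 of the 26, fewer for 11 and equal numbers for 7, beside 33.3%, 46.1% and 20.6% of protein-coding genes with a peak. The median difference was 0 in both sets. Of the 26, 5 were in the knockdown list only and 7 in the control list only, beside 13.4% and 22.8%. Of the LEM-domain genes, LEMD2 had 2 control and 0 knockdown peaks (highest score 15.15), LEMD3 had 1 and 0, and ANKLE2 had 3 and 5. BANF1, whose product bridges LEM domains and DNA, had 1 and 2. RCE1, a protease that helps to process prelamin A and B-type lamins, had 0 and 3 (highest score 11.82), and ZMPSTE24, the prelamin A protease, had 1 in both lists. TOR1AIP2, an activator of torsin ATPases, had 0 and 2 (37.96). The largest differences the other way were those of TMEM201, an inner membrane protein, with 6 and 1, PPP2R2A, a phosphatase subunit, with 6 and 1, and NEMP2 with 5 and 1, all of whose peaks overlap another gene too. CBX5, the heterochromatin protein that binds LBR, had 4 and 1. The additional LINC complex genes SYNE3, SYNE4, SUN3, SUN5, SPAG4 and KASH5 had 0 peaks in either list. With no share over all protein-coding genes counted, this is not read as a trait of these genes.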

How the data were processed

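The authors deposited 1 interval list of peaks per arm, each peak with a score of unstated scale. The submitters' processing notes name fastp 0.20.1, Bowtie2 2.4.1 and hg38, and the sources used here name no peak caller, threshold, use of input or pooling of replicates. The name of the control list matches only the control titles, and the other list was read as that of the knockdown. Of the control peaks 95.5% and of the knockdown peaks 95.6% had a score of 10 or more, so a site just under that edge is mostly not listed. A score of 0 was listed for 907 and 592 peaks and an infinite one for 67 and 60. Depth is unknown.

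Peaks were assigned to RefSeq gene spans (GRCh38.p14) by an overlap of at least 1 bp on either strand with bedtools 2.31.1. The table used holds no exons, so introns, exons and untranslated regions were not analysed here. Strand and starts came from RefSeq start positions, except for SUN1, which was given the strand of its own peaks. Peaks were called shared by an overlap of at least 1 bp on the same strand. Python 3.11.15, pandas 2.3.3 and SciPy 1.17.1 were used. Alternatives covered score, width, list length, merging of peaks within 100 bp, gene assignment, strand and overlap. The overlap step was checked with control peaks shifted by a few bases, and 17182 of 17182 were found in the unshifted list. Of 2000 simulated peaks placed in known genes, 2000 were assigned to them. A working overlap step must give these outcomes, so they check the procedure and not the results.

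All 10 members are named. Of the 38 further genes, the rule names those with at least 2 peaks in 1 list and 0 in the other, and the 6 with the largest differences. The remaining ones named were chosen for their role with values seen. GTPBP1 was named after its overlap was seen. Genes like LBR, TMPO and SUN1 were ranked by peak number and then highest score. The members and lists were chosen with earlier results of these data known.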

Additional observations from a re-analysis of the deposited data

How the results depend on the processing

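The alternatives that change counts only remove or merge listed peaks, so the 0 control peaks of LBR, TMPO and SUN1 could not move and their stability was not tested. At a score of 20 or more, the lists held 6 control and 10 knockdown peaks of the 10 genes, 3 of the 4 genes with a peak left had more knockdown peaks and 1 had fewer. LBR and SUN1 then had 0 in both, TMPO 0 and 2, SYNE1 0 and 4, and LMNA turned to 5 control and 2 knockdown peaks (-3). With the control list cut by score to as many peaks as the knockdown list, 8 genes had more knockdown peaks and 1 fewer. This cut removes control peaks only, so a difference, knockdown minus control, could only stay or rise. SUN2 turned to more knockdown peaks with scores of 10 or more (2), with scores of 20 or more (1), with the shortened control list (4) and on its own strand (1). Shares of shared peaks stayed inside their reported intervals under peak width, score, list length, merging, gene assignment, strand and reciprocal overlap. With peaks within 100 bp merged, 41 control and 52 knockdown peaks were counted, 4 genes had more knockdown peaks and 2 fewer, and LMNA had 9 in both lists. No paired analysis was possible because each arm has 1 list with no replicate separated. No replicate could be left out for the same reason.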

Other observations

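Peaks of 25 bp, the smallest width in these genes, were 14 of the 68 knockdown peaks and 7 of the 49 control peaks, with no share over the whole lists to set beside them. Of all member peaks, 33 of 49 control and 46 of 68 knockdown widths were whole multiples of 25 bp, beside 58.2% and 54.5% of all peaks in the lists.

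Of the 26 further genes with a peak, 7 had equal numbers in both lists. TOR1B, TOR1AIP1, LMNTD1 and CBX1 had a peak that overlapped between the lists, and NRM, VPS4A and ZMPSTE24 had none. NRM, which encodes nurim, had 1 peak in each list, with scores of 11.25 and 10.50, and VPS4A, an ATPase of membrane resealing, had 2 in each, with highest scores of 14.84 and 16.28. None of these overlapped between the lists. CHMP4B, a subunit of the membrane-sealing ESCRT-III complex, had 2 control and 3 knockdown peaks, with highest scores of 31.11 and 13.06, and CHMP7, which recruits it to the nuclear envelope, had 1 and 0. The 2 control peaks of CHMP4B each overlapped a knockdown peak. These genes were named after their values were seen.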
